A study of Mus musculus with 12 samples.

Results

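The Cyp2c family of mouse liver was followed here across both sexes and both Siah2 genotypes, as the 10 cytochrome P450 genes Cyp2c29, Cyp2c37, Cyp2c38, Cyp2c39, Cyp2c40, Cyp2c44, Cyp2c50, Cyp2c54, Cyp2c69 and Cyp2c70. The members were taken by their symbols, with earlier results of these data known but no measured value in the rule, and all 10 were found among the 23420 gene symbols of the count tables. Transcripts were counted in the livers of 12 mice of the C57BL/6 strain background, collected at ZT10, that is 10 hours after lights on, at about 20 weeks of age. There were 3 wild type females (WTF), 3 Siah2 KO females (KOF), 3 wild type males (WTM) and 3 Siah2 KO males (KOM), and each mouse is named by its number. The knockout removes SIAH2, an E3 ubiquitin ligase, from every cell of the body, and all mice ate normal chow. The wild type and knockout animals belonged to related lines bred from an intercross of heterozygotes, so a difference between genotypes cannot be told apart from a difference between lines. The paper describes individual livers, whereas the labels speak of RNA pooled over 3 mice. Each library was taken as 1 mouse, and if it was not, the p-values measure the spread between pools.

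Cyp2c enzymes are monooxygenases of the hepatocyte endoplasmic reticulum, which receive electrons from P450 oxidoreductase and cytochrome b5. They oxidize drugs, steroids and fatty acids, and several of them convert arachidonic acid into epoxides and hydroxy acids, while Cyp2c70 makes muricholic acids, the bile acids typical of mice. Many hepatic P450 genes of rodents are expressed mainly in 1 sex, under the control of the sex-specific pattern of growth hormone release acting through JAK2 and STAT5b.

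The genes form groups of near-identical copies, which bears on every value below. In the RefSeq annotation of GRCm38.p6, 14 of the 15 Cyp2c genes examined (the 10 members and Cyp2c55, Cyp2c65, Cyp2c66, Cyp2c67 and Cyp2c68) lie between position 39006940 and position 40187286 of chromosome 19. Along the chromosome, Cyp2c29 (39287044 to 39330713) was followed by Cyp2c39 and Cyp2c38. Next came Cyp2c67, Cyp2c68, Cyp2c40 (39767073 to 39812814) and Cyp2c69 (39842660 to 39886769). Cyp2c37 (39992424 to 40012243), Cyp2c54, Cyp2c50 (40089679 to 40113955) and Cyp2c70 completed the cluster. Cyp2c44, listed by RefSeq as Cyp2c23, lies apart from it, at 44005022 to 44029256. Coding sequences of Cyp2c40 and Cyp2c69 were 97.9% identical, and each was 96.5% to 98.1% identical to Cyp2c67 and Cyp2c68. Cyp2c37, Cyp2c50 and Cyp2c54 were 95.1% to 96.1% identical to each other, and Cyp2c38 was 94.2% identical to Cyp2c39.

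**Figure D1:**
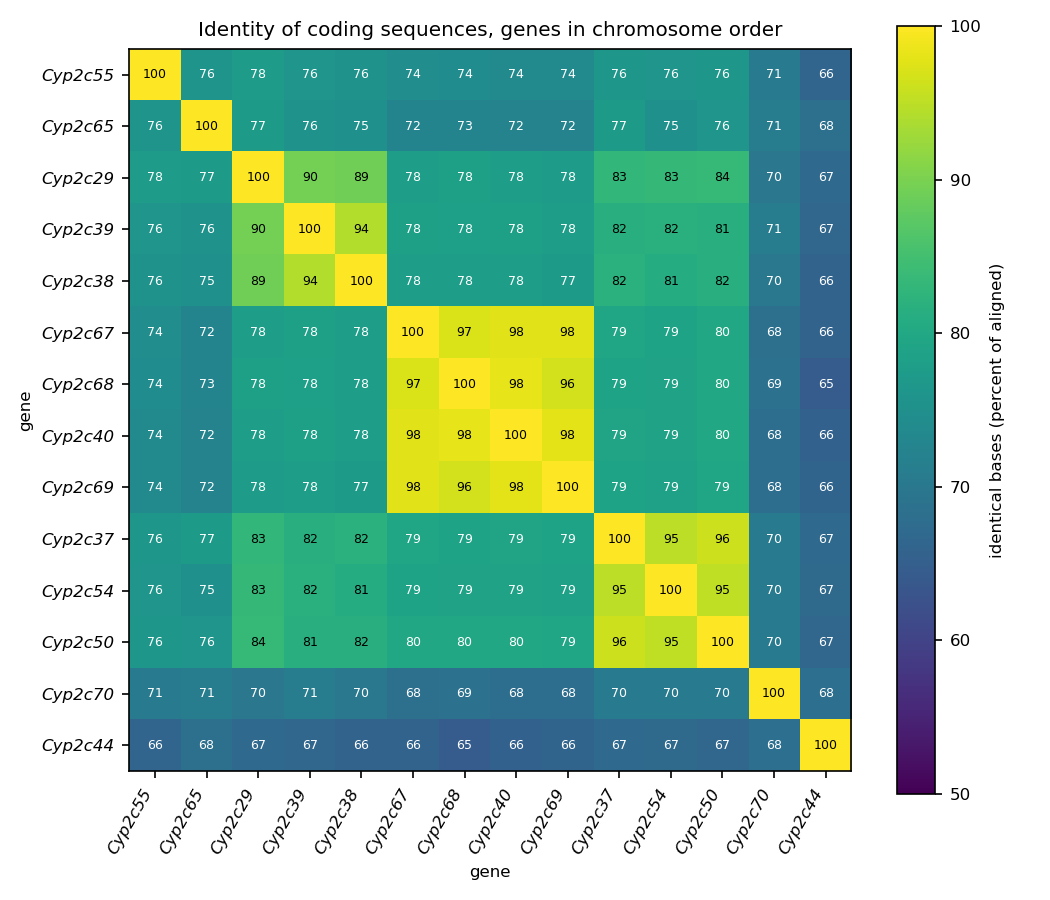
Identity of the coding sequences of 14 Cyp2c genes, as the percent of aligned bases that are the same in both genes, with genes in chromosome order on both axes and the colour scale running from 50% to 100%. The blocks above 90% are Cyp2c39 with Cyp2c38, the 4 genes from Cyp2c67 to Cyp2c69, and Cyp2c37 with Cyp2c54 and Cyp2c50, while Cyp2c70 and Cyp2c44 stand apart; Cyp2c66 was left out of the plot.

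The reads come from transcript 3′ ends, so the likeness of those ends decides which copies a read can tell apart. Of the 50-base words in the last 500 bases of the Cyp2c40 transcript, 75.2% also occurred in another gene, in each case Cyp2c67, Cyp2c68 or Cyp2c69. The share was 53.9% for Cyp2c67, 51.2% for Cyp2c68 and 26.6% for Cyp2c69. It was 30.4% for Cyp2c37, 27.5% for Cyp2c50 and 27.1% for Cyp2c54, which shared words with each other. Cyp2c39 shared 12% of its words with Cyp2c38, and Cyp2c29, Cyp2c38, Cyp2c44 and Cyp2c70 shared none. How the authors' counting treated reads that match several copies is stated in no source used here, so the split of reads within these groups is uncertain.

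The promoters of the 4 near-identical genes are shown because their transcripts had different sex patterns, and those of Cyp2c37 and Cyp2c50 because Cyp2c37 was higher in females and Cyp2c50 was not. Each window holds 250 bases before and 50 bases after the transcript start given by RefSeq on GRCm38.p6, written 5′ to 3′ in the direction of the gene. Capitals mark the letters ATTAAC or GTTAAT, an HNF1 half-site, and ATTGAT or ATCAAT, the letters bound by HNF6.
Cyp2c40 (chr19:39812765-39813064, minus strand): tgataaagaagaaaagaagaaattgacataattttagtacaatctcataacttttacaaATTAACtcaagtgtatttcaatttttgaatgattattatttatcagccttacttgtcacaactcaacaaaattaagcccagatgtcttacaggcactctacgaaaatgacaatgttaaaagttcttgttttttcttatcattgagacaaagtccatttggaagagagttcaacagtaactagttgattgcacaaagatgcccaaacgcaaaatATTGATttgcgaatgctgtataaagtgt
Cyp2c69 (chr19:39886720-39887019, minus strand): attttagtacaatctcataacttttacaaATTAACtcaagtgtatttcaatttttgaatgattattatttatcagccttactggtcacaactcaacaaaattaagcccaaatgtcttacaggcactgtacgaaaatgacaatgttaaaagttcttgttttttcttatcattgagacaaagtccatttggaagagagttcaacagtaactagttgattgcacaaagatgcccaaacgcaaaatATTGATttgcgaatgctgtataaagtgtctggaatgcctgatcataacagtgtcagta
Cyp2c68 (chr19:39741052-39741351, minus strand): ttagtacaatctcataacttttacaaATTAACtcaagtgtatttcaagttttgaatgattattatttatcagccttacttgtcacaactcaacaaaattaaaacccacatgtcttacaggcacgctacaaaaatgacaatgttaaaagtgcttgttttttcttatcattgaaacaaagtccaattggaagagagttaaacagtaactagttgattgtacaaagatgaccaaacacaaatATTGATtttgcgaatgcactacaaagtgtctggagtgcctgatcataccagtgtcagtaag
Cyp2c67 (chr19:39648993-39649292, minus strand): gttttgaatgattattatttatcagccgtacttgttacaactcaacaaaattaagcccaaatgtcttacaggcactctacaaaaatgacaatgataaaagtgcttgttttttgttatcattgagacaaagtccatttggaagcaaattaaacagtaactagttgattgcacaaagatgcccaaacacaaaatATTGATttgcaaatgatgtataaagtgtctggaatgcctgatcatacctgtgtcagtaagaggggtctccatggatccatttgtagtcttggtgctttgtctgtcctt
Cyp2c37 (chr19:39992174-39992473, plus strand): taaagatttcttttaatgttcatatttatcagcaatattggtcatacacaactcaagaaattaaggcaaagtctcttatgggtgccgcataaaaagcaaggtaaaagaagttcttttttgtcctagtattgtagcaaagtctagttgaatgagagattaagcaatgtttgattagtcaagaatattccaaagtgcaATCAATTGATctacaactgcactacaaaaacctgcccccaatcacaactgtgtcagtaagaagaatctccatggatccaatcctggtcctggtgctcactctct
Cyp2c50 (chr19:40089429-40089728, plus strand): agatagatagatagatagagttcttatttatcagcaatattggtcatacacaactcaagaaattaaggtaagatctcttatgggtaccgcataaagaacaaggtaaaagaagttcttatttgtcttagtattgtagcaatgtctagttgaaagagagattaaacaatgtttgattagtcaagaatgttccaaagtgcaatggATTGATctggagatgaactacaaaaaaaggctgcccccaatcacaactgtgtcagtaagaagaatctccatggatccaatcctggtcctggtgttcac

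The windows of Cyp2c40 and Cyp2c69 were 98.9% identical over 270 aligned bases. The window of Cyp2c67 was 93.2% identical to that of Cyp2c40 over 220 bases and 92.8% identical to that of Cyp2c69 over 250 bases. The annotated starts of the 4 genes are shifted against each other, so the same ATTGAT stands at 22 in Cyp2c40, -8 in Cyp2c69, -11 in Cyp2c68 and -58 in Cyp2c67, counted from the first transcribed base as 0. ATTAAC stood at -191 in Cyp2c40, -221 in Cyp2c69 and -224 in Cyp2c68, and the stretch that matches it lies upstream of the Cyp2c67 window. The windows of Cyp2c37 and Cyp2c50 were 90.1% identical over 292 bases. Cyp2c37 had ATCAAT at -54 and, sharing 2 of its letters, ATTGAT at -50, where Cyp2c50 had only an ATTGAT, at -48.

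These letters were searched on both strands of 12 Cyp2c windows and of 32851 RefSeq windows of the same length. ATTGAT was present in 7.54% of all windows and GTTAAT in 7.1%. AGGTCA, the half-site of nuclear receptors, was present in 16.3% and, in the family, at -154 in Cyp2c29 and -74 in Cyp2c70. TTCNNNGAA, the letters bound by STAT5, was present in 8.3% of all windows and in none of the 12. A match is not a bound site, and the lack of one concerns these 300 bases only. Cyp2c39 has 2 windows in the table and was not searched, and Cyp2c44 and Cyp2c54 were not searched.

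The libraries held between 1293688 and 4056144 counted reads, of which the 10 members took 0.201% to 0.336%. The median absolute log2 difference over 9806 genes was 0.57 between WTF 1091 and either other wild type female, against 0.26 to 0.37 within every other pair of the same group. For the members, values without WTF 1091 are therefore given where they change a call. Values of single genes outside the family were not examined without this mouse. Xist, expressed from the inactive X chromosome, was at 66.2 to 113 CPM in females and at most 0.868 CPM in males. Siah2 itself was at 11.5 to 17.0 CPM in WTF, 9.63 to 12.5 CPM in KOF, 16.8 to 27.1 CPM in WTM and 9.42 to 17.4 CPM in KOM. Its reads overlapped between genotypes in both sexes, and whether they fall outside the deleted part is not known here, so they do not check the labels. The 6 hepatocyte markers were abundant in every library, at a summed 22093 CPM or more.

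Levels are given as CPM, the reads of a gene per 1000000 reads of a library after TMM scaling. Each transcript gives about 1 read position whatever its length, so no length correction was made between genes. The order and shares of members that share 3′ words with other copies stay uncertain, because reads matching several copies may have been split or dropped. In wild type females Cyp2c29, an arachidonic acid epoxygenase of the liver, was the most abundant member, at 971 ± 145 CPM (SD, n = 3), and none of its values overlapped those of the next member. Cyp2c50, an epoxygenase of arachidonic and linoleic acid, followed at 505 ± 107 CPM. Cyp2c37, Cyp2c70 and Cyp2c69 came next, at 322 ± 120, 304 ± 68.9 and 270 ± 142 CPM. Cyp2c44, Cyp2c54 and Cyp2c40 stood at 191 ± 27.4, 187 ± 53.6 and 147 ± 70.4 CPM. From Cyp2c50 down to Cyp2c40, each neighbour in this order overlapped the next. Cyp2c38 at 62.2 ± 18.7 CPM and Cyp2c39 at 2.30 ± 1.20 CPM were each below all values of the member before.

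In wild type males the order was shorter. Cyp2c29 at 1122 ± 135 CPM and Cyp2c50 at 543 ± 37.7 CPM again came first, without overlap between them or with the next member. Cyp2c44, Cyp2c70, Cyp2c54 and Cyp2c37 lay at 214 ± 21.2, 203 ± 29.5, 178 ± 36.5 and 133 ± 32.9 CPM, each overlapping its neighbour. Cyp2c38 was at 18.6 ± 10.5 CPM, and Cyp2c69, Cyp2c40 and Cyp2c39 were at means of 0.670, 0.541 and 0.335 CPM, no more than a few reads a library.

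**Figure D2:**
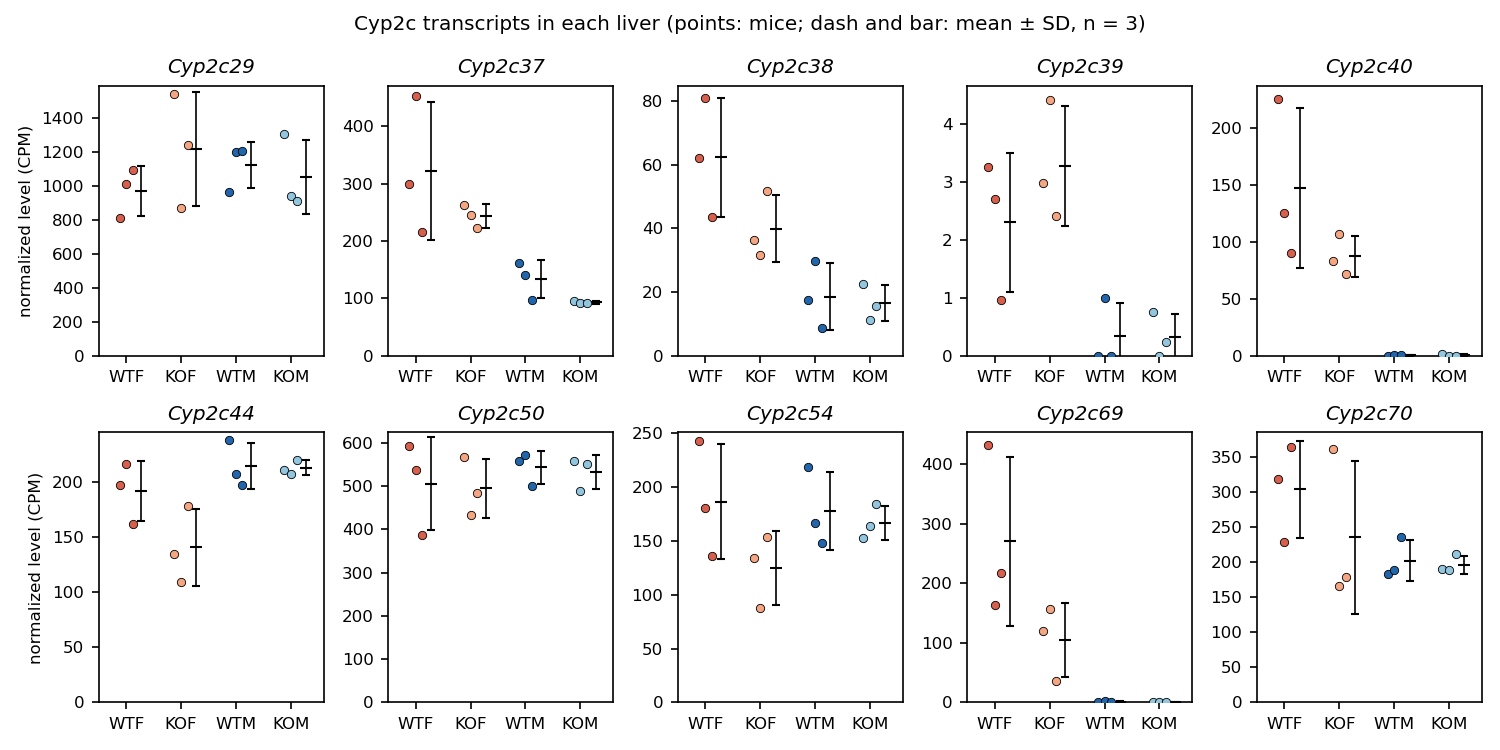
Normalized level (CPM, linear axes from 0, 1 scale per gene) of the 10 Cyp2c members in each of the 12 livers, with the mean and SD of each group of 3 beside the points. Cyp2c40 and Cyp2c69 lie near 0 in all 6 males, Cyp2c37 and Cyp2c38 are higher in every female than in any male, and Cyp2c29 and Cyp2c50 overlap across the 4 groups.

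The comparison of wild type females with wild type males asked how the family differs between the sexes when SIAH2 is present. Cyp2c69 and Cyp2c40 were almost confined to females, and Cyp2c37 and Cyp2c38 were higher in females by a factor that passed the threshold in some fits and not in others. The other tested members overlapped between the sexes. Of 10 members, 9 had enough reads to be tested, and edgeR called 2 of them at an adjusted p under 0.05, both higher in females. Over all 9335 genes tested, it called 1.39% in either direction and 0.686% as higher in females. The median log2 fold change of the 9 members was 0.62, against 0.05 over all genes.

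Cyp2c69 was at 431, 163 and 217 CPM in the wild type females 1089, 1090 and 1091, and at 0, 2.01 and 0 CPM in the wild type males 1055, 1086 and 1087. All females were far above all males, and the females themselves differed from each other by more than the males. In reads this was 2419 against 4 over the 3 libraries of each sex, a ratio of 427 scaled to library size (95% exact interval 167 to 1570, counting error only). The fitted log2 fold change was 8.68 ± 0.77 (SE), with an adjusted p of 0.000284 by edgeR.

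Cyp2c40, which turns arachidonic acid into a hydroxy acid, was at 226, 126 and 90.1 CPM in the same females and at 0, 1.01 and 0.619 CPM in the males. Again no male approached a female. The reads were 1329 against 4, a ratio of 235 (95% interval 91.4 to 863), and the log2 fold change was 7.83 ± 0.58 (edgeR adjusted p = 9.44e-05). The same males had 58.8 to 101 CPM of Cyp2c67 and 35.0 to 47.4 CPM of Cyp2c68, the copies that share most words with Cyp2c40, so reads of those transcripts were not assigned to Cyp2c40 at a level above 1.01 CPM.

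Cyp2c37, which makes hydroxy acids from arachidonic acid, was at 299, 452 and 216 CPM in wild type females and at 162, 140 and 97.5 CPM in wild type males, without overlap. Its log2 fold change was 1.30 ± 0.31, and its adjusted p was 0.0804 by edgeR and 0.00825 by DESeq2. Cyp2c38, an arachidonic acid epoxygenase, was at 62.1, 81.0 and 43.6 CPM in females and at 17.6, 29.7 and 8.67 CPM in males, also without overlap. Its log2 fold change was 1.79 ± 0.42, and the adjusted p was 0.0747 (edgeR) or 0.00481 (DESeq2). DESeq2 called 4 members as higher in females, among 1.55% of the 9197 genes that it tested. Without WTF 1091, edgeR also called these 4, at 1.51 and adjusted p = 0.00469 for Cyp2c37 and 1.99 and adjusted p = 0.0112 for Cyp2c38, while the share of all genes called as higher in females rose to 3.25%.

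The remaining members did not pass the test between the wild type sexes. Cyp2c70 was at 319, 229 and 364 CPM in females and 183, 189 and 236 CPM in males, a log2 fold change of 0.62 ± 0.26 with an edgeR adjusted p of 0.294. Cyp2c29, Cyp2c50, Cyp2c54 and Cyp2c44 had log2 fold changes between -0.17 and 0.10, with standard errors of at most 0.27. Cyp2c39, which can hydroxylate retinoic acid, had too few reads for the test, with 21 reads in the 3 females and 2 in the 3 males. The ratio scaled to library size was 7.42, with a 95% interval of 1.81 to 65.2 for counting error only.

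**Figure D3:**
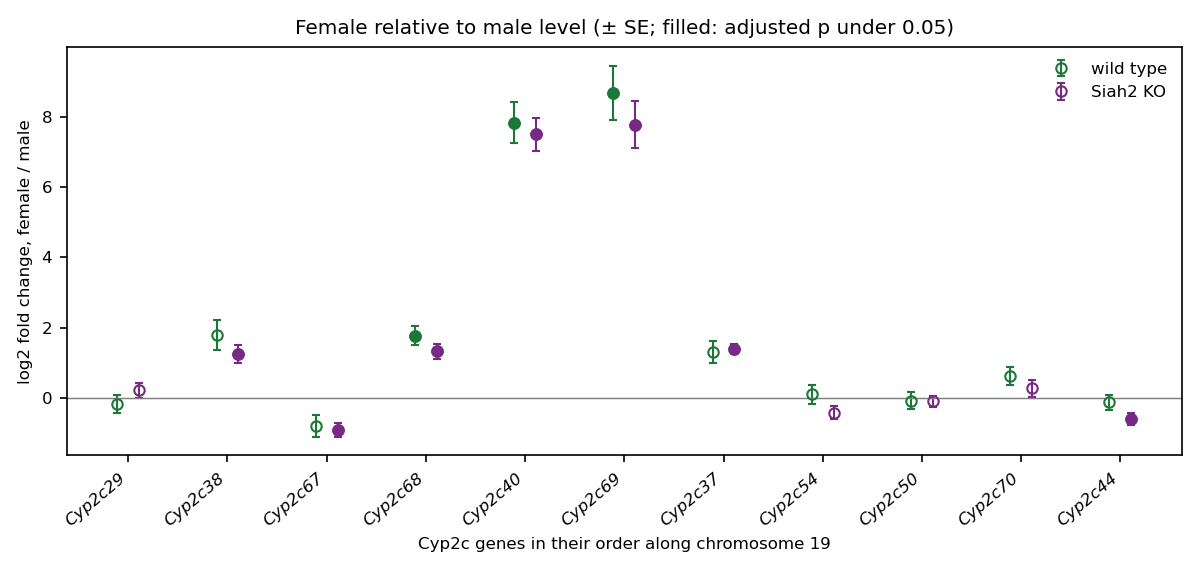
Fitted log2 fold change of female over male level, with its standard error, for the tested Cyp2c genes in chromosome order, in wild type and in Siah2 KO mice. Filled points have an edgeR adjusted p under 0.05; Cyp2c40 and Cyp2c69 lie between 7.49 and 8.68, and their near-identical neighbour Cyp2c67 lies below 0 in both genotypes.

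The same comparison in Siah2 KO mice asked how the sexes differ without SIAH2. Cyp2c69, Cyp2c40, Cyp2c37 and Cyp2c38 were higher in Siah2 KO females, and Cyp2c44 was lower. edgeR called 5 of the 9 tested members, where it called 11.5% of all 9102 genes, 5.69% as higher and 5.78% as lower in females. The median log2 fold change of the members was 0.27, against 0 over all genes.

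Cyp2c69 was at 121, 157 and 36.7 CPM in the Siah2 KO females 1070, 1104 and 1105 and at 0, 1.30 and 0.246 CPM in the Siah2 KO males 1075, 1076 and 1081. The lowest female, 1105, was still well above every male. The reads were 934 against 4, a ratio of 261 (95% interval 101 to 959), and the log2 fold change was 7.77 ± 0.67 (edgeR adjusted p = 2.27e-06). Cyp2c40 was at 83.1, 107 and 72.2 CPM in these females and at 1.51, 0 and 0 CPM in the males. Females and males stood apart for this gene too. With 718 reads against 4 the ratio was 200.4 (95% interval 77.9 to 738), and the log2 fold change was 7.49 ± 0.47 (edgeR adjusted p = 6.93e-08).

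Cyp2c37 was at 263, 245 and 222 CPM in Siah2 KO females and at 96.1, 91.6 and 91.7 CPM in Siah2 KO males. Both groups were tight, and the log2 fold change of 1.39 ± 0.15 had an edgeR adjusted p of 2.2e-05. Cyp2c38 was at 36.3, 31.7 and 51.8 CPM in females and at 22.6, 11.3 and 15.8 CPM in males. The groups did not overlap, and the log2 fold change was 1.25 ± 0.26 (edgeR adjusted p = 0.00729). In a fit of all 4 groups the adjusted p for Cyp2c38 was 0.0838.

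Cyp2c44, an arachidonic acid epoxygenase, was at 134, 109 and 178 CPM in Siah2 KO females and at 211, 207 and 220 CPM in Siah2 KO males. Every female was below every male, with a log2 fold change of -0.60 ± 0.18 (edgeR adjusted p = 0.0393). This call was lost when any 1 of 5 of the 6 mice was left out (adjusted p from 0.0813 to 0.198), all but KOF 1105, in the fit of all 4 groups (adjusted p = 0.121) and with libraries thinned to the smallest total (adjusted p = 0.0588). Cyp2c54, another epoxygenase, was at 134, 87.3 and 154 CPM in females and 153, 164 and 184 CPM in males, a log2 fold change of -0.42 ± 0.19 that did not pass (edgeR adjusted p = 0.184). Cyp2c29, Cyp2c50 and Cyp2c70 had log2 fold changes of 0.21, -0.10 and 0.27. Cyp2c39 had 27 reads in the 3 females and 3 in the males, a ratio of 10.0 (95% interval 3.09 to 51.8).

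The other Cyp2c genes help to place these differences within the groups of copies. Of the 5, Cyp2c67 and Cyp2c68 had enough reads for the tests between groups. Cyp2c68 was at 102 to 174 CPM in WTF and 35.0 to 47.4 CPM in WTM, a log2 fold change of 1.76 ± 0.27 (edgeR adjusted p = 0.0106), and at 83.1 to 109 CPM in KOF and 28.3 to 52.0 CPM in KOM, a log2 fold change of 1.32 ± 0.21 (edgeR adjusted p = 0.0011). Cyp2c67 went the other way. It was at 36.5, 47.9 and 57.8 CPM in KOF and at 76.1, 90.7 and 97.3 CPM in KOM, a log2 fold change of -0.91 ± 0.19 (edgeR adjusted p = 0.00741), and at -0.80 ± 0.31 between the wild type sexes (edgeR adjusted p = 0.246).

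Because reads may be split wrongly among the copies, the copies were also summed. The sum of Cyp2c40, Cyp2c67, Cyp2c68 and Cyp2c69 was higher in females by a log2 fold change of 2.35 ± 0.34 in wild type mice (edgeR adjusted p = 0.00791) and 1.40 ± 0.19 in Siah2 KO mice (edgeR adjusted p = 0.000299). The sum of Cyp2c37, Cyp2c50 and Cyp2c54 did not pass, with a log2 fold change of 0.27 ± 0.26 in wild type mice (edgeR adjusted p = 0.668) and 0.13 ± 0.15 in Siah2 KO mice (edgeR adjusted p = 0.645). Cyp2c50 is the largest term of this sum. How the assignment of reads among the 3 copies bears on the value for Cyp2c37 was not tested.

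The 10 members summed to 2962 ± 240.0 CPM in WTF, 2690 ± 519 CPM in KOF, 2414 ± 85.0 CPM in WTM and 2272 ± 236 CPM in KOM. The make-up of this sum differed more than its size. Cyp2c40 and Cyp2c69 together held 13.9% ± 5.93 of it in WTF and 7.47% ± 4.03 in KOF, against 0.0487% ± 0.0633 in WTM and 0.0443% ± 0.0286 in KOM. Cyp2c29 held 33.2% ± 7.46 in WTF, 44.7% ± 4.62 in KOF, 46.4% ± 4.65 in WTM and 46.0% ± 4.97 in KOM. Cyp2c50 held 16.9% ± 2.34, 18.5% ± 1.05, 22.5% ± 1.44 and 23.5% ± 1.63 in the same order.

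**Figure D4:**
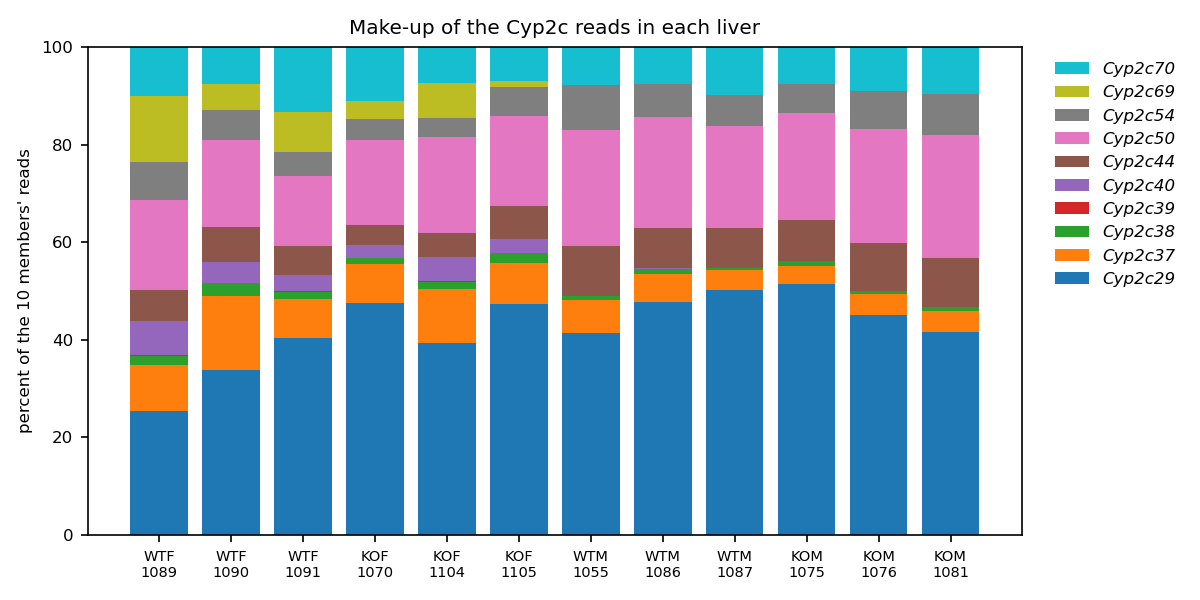
Share of each member (percent) in the summed reads of the 10 Cyp2c members, as 1 stacked bar per mouse. Cyp2c29 and Cyp2c50 are the broadest bands in every liver, and the bands of Cyp2c40 and Cyp2c69 are visible in females only, from 4.16% of the sum together in KOF 1105 to 20.7% in WTF 1089.

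The comparison of Siah2 KO with wild type females asked whether the family changed with the loss of SIAH2. No member passed the test by edgeR. The fit was lower in Siah2 KO mice for 8 of the 9 tested members in females and for all 7 tested in males. Members that share 3′ words are not independent, and the share of all genes with a lower fit was not counted. The called share was 0% of all 9465 genes by edgeR, while 3 members and 1478 genes had an unadjusted p under 0.05. By DESeq2 it was 3.6% of 8358 genes and none of the members, and limma-voom called neither a member nor any other gene. The median log2 fold change was -0.46 for the 9 members and -0.03 for all genes.

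Cyp2c69 had the largest difference among the tested members, with 121, 157 and 36.7 CPM in Siah2 KO females against 431, 163 and 217 CPM in wild type females. All Siah2 KO values lay below all wild type values, the closest being 157 and 163 CPM. Cyp2c69 was 1 of 9 tested members with that order, which 11.9% of all genes tested also had. The log2 fold change was -1.37 ± 0.50, with an unadjusted p of 0.0213 and adjusted p-values of 0.222 (edgeR) and 0.0917 (DESeq2). Without WTF 1089, the highest of the wild type females, it was -0.87 (edgeR adjusted p = 0.487).

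Cyp2c40, with 83.1, 107 and 72.2 CPM against 226, 126 and 90.1 CPM, and Cyp2c38, with 36.3, 31.7 and 51.8 CPM against 62.1, 81.0 and 43.6 CPM, overlapped between genotypes. Their log2 fold changes were -0.76 ± 0.34 and -0.67 ± 0.30, with edgeR adjusted p-values of 0.314 and 0.318. WTF 1091 was the lowest wild type female for both. Without it, edgeR called both, at -1.0 (adjusted p = 0.0336) and -0.87 (adjusted p = 0.0419), and called 4.43% of all genes as lower in Siah2 KO females. Without WTF 1089, the value for Cyp2c40 was -0.32 (edgeR adjusted p = 0.684).

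Among the others, Cyp2c54 was at -0.59 ± 0.29, Cyp2c44 at -0.46 ± 0.25, Cyp2c37 at -0.42 ± 0.29 and Cyp2c70 at -0.38 ± 0.33 on the log2 scale, with edgeR adjusted p-values of 0.37 to 0.636. Without WTF 1090, the highest wild type female for this gene, Cyp2c37 was at -0.10 (edgeR adjusted p = 0.91), and without KOF 1070 Cyp2c70 was at -0.83 (edgeR adjusted p = 0.394). Cyp2c29 was the member with a higher fit in Siah2 KO females, at 1539, 871 and 1238 CPM against 809, 1012 and 1091 CPM. The groups overlapped, and its log2 fold change was 0.31 ± 0.28 (edgeR adjusted p = 0.641). Cyp2c50 was at -0.04 ± 0.25, and Cyp2c39, at 2.98, 4.42 and 2.41 CPM against 3.25, 2.70 and 0.956 CPM, was not tested.

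**Figure D5:**
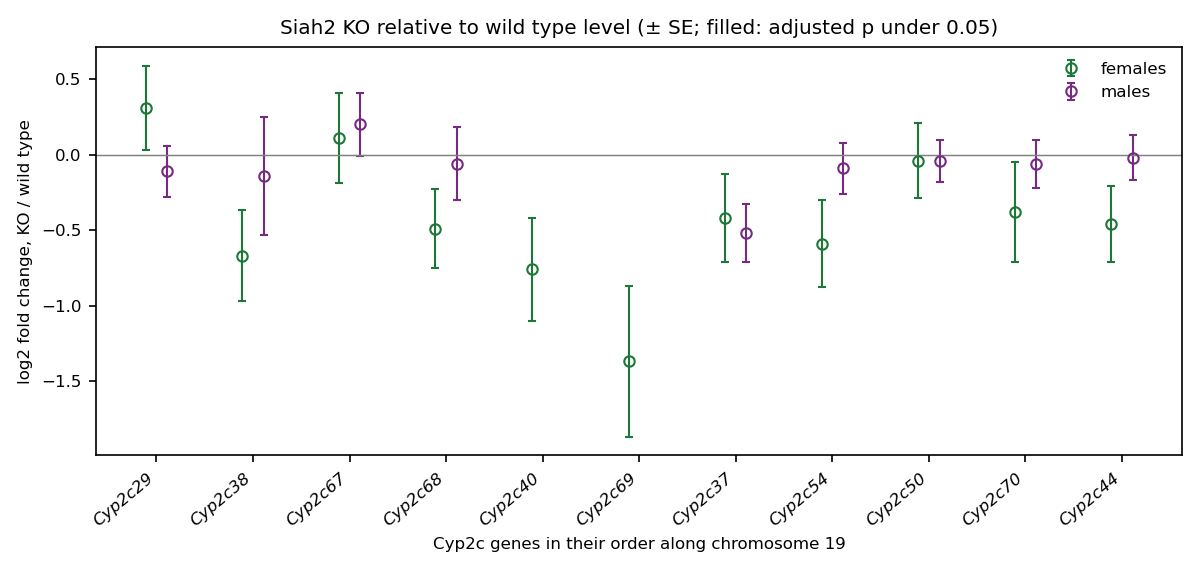
Fitted log2 fold change of Siah2 KO over wild type level, with its standard error, for the tested Cyp2c genes in chromosome order, in females and in males. No point is filled, as none had an edgeR adjusted p under 0.05; in females Cyp2c69 lies lowest, at -1.37.

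In males, 7 members could be tested between genotypes and edgeR called none, where it called 0% of 8823 genes. An unadjusted p under 0.05 was found for 1 member and 357 genes. DESeq2 called 6 genes and none of the members, and limma-voom called no gene. The member was Cyp2c37, with 96.1, 91.6 and 91.7 CPM in Siah2 KO males and 162, 140 and 97.5 CPM in wild type males. The groups did not overlap, an order that 4.42% of all genes had, and the log2 fold change was -0.52 ± 0.19 (unadjusted p = 0.0174, edgeR adjusted p = 1). The other 6 lay between -0.14 and -0.02, and Cyp2c38, at -0.14, was at 0.45 without WTM 1086 (edgeR adjusted p = 0.998). Cyp2c39, Cyp2c40 and Cyp2c69 had too few reads in males to be tested.

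Whether the genotype difference depends on sex was asked in 1 fit of the 12 mice, by subtracting the male difference from the female one. edgeR called none of the 9 tested members, where it called 0.255% of 9806 genes. No member had an unadjusted p under 0.05, against 1382 genes, and neither DESeq2 nor limma-voom called a member. For Cyp2c54, Cyp2c44 and Cyp2c29 the differences were -0.49 ± 0.35, -0.44 ± 0.29 and 0.42 ± 0.33 on the log2 scale. For Cyp2c69 and Cyp2c40 they were -0.92 ± 1.97 and -0.34 ± 1.58. These errors are wide because the males had 4 reads per gene and genotype, so a sex-dependent change of those 2 genes was not detectable at this depth.

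Across the 12 mice, Cyp2c29 did not follow the female-biased members. The 3 genes outside the family with the highest Pearson r to it on the log2(CPM + 1) scale, of 6706 compared, were Rnf185 (r = 0.83, Spearman rho = 0.92), Pon2 (0.81, 0.84) and Mrpl34 (0.81, 0.77). For Cyp2c69 the 3 were Slc22a26, an organic anion transporter, and the P450 genes Cyp2b13 and Cyp2a4. The mice fell into females and males for these genes, so r is given within the 6 females. It was 0.59 (rho = 0.83) for Slc22a26, 0.75 (0.77) for Cyp2b13 and 0.81 (0.31) for Cyp2a4. Their mean levels in WTF and KOF were 60.9 and 35.2 CPM for Slc22a26, 122 and 82.6 CPM for Cyp2b13 and 407 and 387 CPM for Cyp2a4, against 1.91 CPM or less in each male group. The genes were picked as the most alike of all, so no p is given.

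The lists of pathway genes around the family were described by the same tests, with no mouse left out. Over all genes, edgeR called 11.5% between the Siah2 KO sexes, 1.39% between the wild type sexes and 0% between genotypes within either sex. Of the electron donors of P450 enzymes, 3 of 4 were in the tables. None of them passed in either genotype comparison or between the wild type sexes, where Por was at 0.55 ± 0.39 and Cyb5r3 at -0.22 ± 0.22. Between the Siah2 KO sexes Por, the P450 oxidoreductase, was higher in females (log2 fold change 0.69 ± 0.16, edgeR adjusted p = 0.0147) and Cyb5r3, the cytochrome b5 reductase, was lower (-0.68 ± 0.16, 0.012). Of 5 tested genes of the list of epoxyeicosanoid enzymes, 2 were lower in Siah2 KO females than males. These were Ephx2, the soluble epoxide hydrolase that breaks down the epoxides (-0.83 ± 0.16, edgeR adjusted p = 0.00474), and the epoxygenase Cyp2j6 (-0.60 ± 0.18, 0.0475). None of the 5 passed in the other comparisons. At an unadjusted p under 0.05 stood 1 of them between genotypes in females, where 1478 of all 9465 genes did. Between the wild type sexes none did, against 1423 of all 9335 genes.

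Of 10 nuclear receptors and hepatocyte factors, 2 passed by edgeR between the Siah2 KO sexes, where 11.5% of all genes did, and none in the other comparisons. Hnf4a, a master regulator of hepatocyte genes, was lower in females (-0.63 ± 0.17, edgeR adjusted p = 0.0275), and Nr1h4, the bile acid receptor, was higher (0.59 ± 0.17, 0.0336). Of the growth hormone and STAT5 list, 2 of 11 tested genes passed in that comparison and none of 11 or 12 elsewhere. Trim24, a transcriptional cofactor, was higher in females (1.90 ± 0.21, edgeR adjusted p = 3.45e-05), and the pioneer factor Foxa1 was lower (-1.02 ± 0.30, 0.0377, with a DESeq2 adjusted p of 0.0622). Between the wild type sexes Trim24 was also above the male values in every female, at 1.48 ± 0.33 (adjusted p = 0.0633 by edgeR, 0.0098 by DESeq2), and Foxa1 was at -0.87 ± 0.34 (edgeR adjusted p = 0.263). Cux2, of the same list, had too few reads to be tested between the sexes. It was at 2.10 to 4.69 CPM in WTF and 0.503 CPM or less in WTM. In KOF it was at 1.84 to 7.22 CPM, and KOM had no reads of it. Between genotypes in females, 1 of 10 nuclear receptors or hepatocyte factors and 2 of 12 growth hormone genes reached an unadjusted p under 0.05, against 1478 of all 9465 genes. The adjusted calls of DESeq2 in these lists were 1 and 0, where it called 3.6% of all genes. The receptor was Nr1i2, lower in KOF without overlap (-1.05 ± 0.27, adjusted p = 0.121 by edgeR and 0.0326 by DESeq2). For the female minus the male genotype difference Nr1i2 was at -1.37 ± 0.36 (adjusted p = 0.104 by edgeR and 0.0196 by DESeq2).

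Cyp2c70 acts beside the bile acid enzymes, all 6 of which were tested. Cyp7b1, the oxysterol hydroxylase, was lower in females, at 23.7 to 34.7 CPM in WTF against 123 to 304 CPM in WTM (log2 fold change -2.88 ± 0.36, edgeR adjusted p = 0.00283) and 20.3 to 40.3 CPM in KOF against 284 to 316 CPM in KOM (-3.40 ± 0.21, 6.77e-08). Between the Siah2 KO sexes Cyp7a1, the rate-limiting enzyme of bile acid synthesis (2.26 ± 0.30, edgeR adjusted p = 0.000219), and Cyp39a1 (1.57 ± 0.40, 0.0207) were higher in females. Cyp39a1 overlapped between the groups, with 16.2 CPM in KOF 1104 and 16.6 CPM in KOM 1075. Cyp8b1, the enzyme that directs synthesis towards cholic acid, was lower in females (-1.54 ± 0.21, edgeR adjusted p = 0.000302). In wild type mice Cyp7a1 was at 182 to 428 CPM in females and 131 to 172 CPM in males, without overlap (1.20 ± 0.33 on the log2 scale, edgeR adjusted p = 0.13, DESeq2 adjusted p = 0.034), and Cyp39a1 and Cyp8b1 were at 1.32 ± 0.44 and 0.78 ± 0.29 (edgeR adjusted p = 0.195 and 0.235). Cyp8b1 was also the 1 gene of these lists called by edgeR for the difference of genotype changes between the sexes (-2.29 ± 0.37, edgeR adjusted p = 0.046), with 60.5 to 93.1 CPM in WTF and 21.4 to 22.3 CPM in KOF. Within females no bile acid enzyme passed between genotypes by edgeR, while DESeq2 called 1, and the same number stood at an unadjusted p under 0.05. This was Cyp8b1, lower in KOF by a log2 fold change of -1.86 ± 0.25. Its adjusted p was 2.48e-06 by DESeq2 and 0.0674 by edgeR. The latter was the lowest that any gene reached by edgeR in that comparison. It was shared with genes of smaller unadjusted p, as Cyp8b1 ranked 3 by that p.

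Sums of cell markers shifted with sex beside these differences, some of them through 1 or a few genes. The 6 hepatocyte markers summed to 30756 to 39701 CPM in WTF and 22164 to 28789 CPM in WTM, and to 25865 to 33731 CPM in KOF and 22093 to 24265 CPM in KOM. Alb was the largest term, at means of 22871 CPM in WTF and 15165 CPM in WTM. Between the wild type sexes 3 of the 6 had a higher fit in females and 3 a lower one, and edgeR called none. Between the Siah2 KO sexes 4 were higher and 2 lower in females, and edgeR called 1. Red blood cell markers, 4 of 6 at 0 in every group, summed to 20.7 to 25.5 CPM in WTF, 8.47 to 20.5 CPM in KOF, 84.4 to 105 CPM in WTM and 103 to 154 CPM in KOM. This sum was almost all Alas2, with Slc4a1 at no more than 1.24 CPM in any mouse, so it stands for 1 gene. Kupffer cell markers summed to 440 to 587 CPM in WTF, 324 to 771 CPM in KOF, 74.6 to 578 CPM in WTM and 98.8 to 225 CPM in KOM. edgeR called 2 of 6 as higher in females in wild type and 4 of 6 in Siah2 KO mice, against 0.686% and 5.69% of all genes. The sums of sinusoidal endothelial markers were 229 to 315, 212 to 232, 178 to 223 and 164 to 191 CPM in the order WTF, KOF, WTM and KOM. Their part in the sex differences of the Cyp2c genes was not tested, and in whole liver fewer cells of a type cannot be told apart from less RNA per cell.

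Between genotypes within females, the sums of several lists also stood apart or overlapped little. The 11 pericentral genes are expressed around the central vein, where many P450 enzymes reside. They summed to 8077 to 8661 CPM in WTF and 12429 to 13223 CPM in KOF. None of 10 tested passed by edgeR, and DESeq2 called 1. At an unadjusted p under 0.05 stood 2 of the 10, against 1478 of all 9465 genes. The median log2 fold change of the 10 was 0.44. Most of the difference in this sum lay in Cyp2e1, whose mean was 3542 CPM in WTF and 7145 CPM in KOF (log2 fold change 1.0 ± 0.26, adjusted p = 0.122 by edgeR and 0.000773 by DESeq2). Rgn, Gulo, Lgr5 and Rhbg had lower means in KOF. Red blood cell sums, almost all Alas2, were 20.7 to 25.5 CPM in WTF and 8.47 to 20.5 CPM in KOF. They did not overlap, but the closest values were 20.7 and 20.5 CPM, and Alas2 had an edgeR adjusted p of 0.446. The epoxyeicosanoid list summed to 1659 to 2717 CPM in WTF and 1461 to 1676 CPM in KOF, and sinusoidal endothelial sums were 229 to 315 and 212 to 232 CPM. Lymphocyte markers summed to 10.5 to 14.1 CPM in WTF, with 1 of 6 at 0, and 6.63 to 9.63 CPM in KOF. Most of this was Ptprc, at means of 9.44 and 5.74 CPM. Fat cell markers summed to 54.0 to 56.7 CPM in WTF and 62.0 to 114 CPM in KOF, with 2 and 3 of 6 at 0. Most of that sum was Fabp4, at means of 50.9 and 84.1 CPM, while Adipoq and Plin1 had no reads in either group. Both sums thus rest mainly on 1 gene, and edgeR called no marker of either list. The sums of bile duct markers (11.8 to 45.8 and 18.1 to 44.1 CPM) and stellate cell markers (177 to 364 and 174 to 239 CPM) overlapped, and pancreatic acinar markers did not exceed 1.20 CPM in any mouse. The part of these cells in the values of the Cyp2c genes was not tested.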

How the data were processed

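QuantSeq 3′ libraries of 12 livers were sequenced, and the authors deposited raw counts per gene symbol, 1 table per sex, without normalization. Per the labels, STAR, DESeq and the build mm10 were named in the submitters' processing notes, with no versions, while the paper describes mapping and counting on BaseSpace. All columns were matched to a mouse by number (0 were left unmatched).

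The tables were joined by symbol. Genes were kept with filterByExpr (default minimum count 10), scaled by TMM and tested by edgeR 4.0.16 (quasi-likelihood F test, two-sided, R 4.3.3) over all genes kept, with p-values adjusted by Benjamini-Hochberg and called under 0.05. CPM values used scaled totals of all 12 libraries. DESeq2 1.42.0 and limma 3.58.1 (limma-voom) were alternatives, and the scripts were tested on simulated data. Each standard error was derived from the fold change and its test statistic. Ratios of reads have exact 95% intervals, which cover counting error only, since the reads carry no molecular identifiers.

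The members and gene lists were chosen with earlier results of these data known. All members are named, and other genes by a rule: genes of the lists called by edgeR (at most 6 a list), and the 3 genes most like the most abundant member and the member with the largest sex difference, all averaging 10 CPM or more. Beyond this rule, a few list genes are named where DESeq2 alone called them or where they made up a sum or went against it. Cux2 is named because it had too few reads for the test between the sexes. Identity was computed on coding sequences of the longest transcript (GENCODE M1, Biopython 1.88), because protein sequences were not used here. Positions and promoters are RefSeq, GRCm38.p6, the assembly of mm10, and 15 of 15 genes matched, Cyp2c44 by its synonym. Figures used matplotlib 3.10.9.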

Additional observations from a re-analysis of the deposited data

How the results depend on the processing

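No called value changed sign under any alternative that was run. Of the Siah2 KO against wild type female comparison, 0 members were called, but 1 was called with no filter beyond 1 count (Cyp2c69, -1.35, adjusted p = 0.00104), a setting that called 484 genes in all, and leaving out 1 mouse gave 0 to 2. Between the wild type sexes, where 2 members were called, DESeq2, no filter beyond 1 count and the fit of all 4 groups each gave 4, with 338, 536 and 505 genes called in all against 130, and leaving out 1 mouse gave 2 to 4. A minimum of 10 counts in every library gave 0 there, because Cyp2c40 and Cyp2c69 were removed (7 members tested), and summing near-identical genes, which left 6 features, gave 1. Between the Siah2 KO sexes, where 5 were called, these last 2 settings and the fit of all 4 groups each gave 3, and leaving out 1 mouse gave 4 to 5. Among the fold changes of single members, 3 values in females and 8 between the wild type sexes fell under the threshold only in an alternative, and 8 between the Siah2 KO sexes rose above it. The counts of 0 in males and for the difference between the sexes were 0 under each alternative. Scaling by RLE and thinning each library to the smallest total kept each count within 1.5 times. No paired analysis was possible because the numbers name single mice and no number is shared between groups. With 3 mice a group and 4 male reads of Cyp2c40 and of Cyp2c69 in each genotype, differences between male groups could not be measured for these genes.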
